A study of Mus musculus with 36 samples.

Results

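The respiratory chain of complexes I to IV was followed through its nuclear genes in mouse cortical neurons stimulated with BDNF or KCl. Members were chosen by name only, as the genes of the deposited RNA table whose symbol begins with Nduf, Uqcr or Cox4 to Cox8, together with Sdha, Sdhb, Sdhc and Sdhd. Of 75 such names, 1 pseudogene name was left out, and 67 of the remaining 74 genes had a mean of at least 10 normalized reads over the 18 RNA libraries. These 67 of 16209 genes tested, out of 26709 listed, held all 34 complex I subunits so named, all 8 complex I assembly factors Ndufaf1 to Ndufaf8, all 4 genes of complex II, all 8 of complex III, 12 of 18 of complex IV, and Ndufa4. The complex I subunits Ndufa11 (mean 355) and Ndufb4 (mean 168) carry other symbols in the table and so are not among the members. The 7 genes under the minimum were Cox4i2, Cox6a2, Cox7a1, Cox7b2, Cox8b, Cox8c and Ndufa4l2. The members nearest to the minimum were Cox6b2 with a mean of 30.4 and Ndufaf6 with 53.9, and the nearest gene outside was Cox6a2 with 5.96.

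The neurons came from CD-1 mouse cortices of embryonic day 15, with the embryos of a preparation pooled, and were cultured for 7 days. All cultures were first silenced for 2 h with AP-5 (100 µM, a blocker of NMDA receptors) and TTX (1 µM, a blocker of sodium channels). They then received BDNF (10 ng/ml, a growth factor that acts through the receptor TrkB) or KCl (55 mM, which depolarizes the membrane) for 1, 6 or 10 h, while control cultures stayed in AP-5 and TTX for 3, 8 or 12 h in all. RNA-seq and ATAC-seq, a measure of open chromatin, each gave 18 libraries, 2 in each of 9 groups. Nothing in the labels ties a library to its own pool of embryos, so the p-values measure the spread between these libraries, which may be technical.

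The respiratory chain passes electrons from NADH and succinate to oxygen and pumps protons across the inner mitochondrial membrane, and ATP synthase uses the resulting gradient. Complex I oxidizes NADH, complex II oxidizes succinate, complex III passes electrons to cytochrome c and complex IV reduces oxygen. Most subunits are nuclear genes, while a few subunits of complexes I, III and IV and of ATP synthase are encoded in mitochondrial DNA; complex II has none there. Neurons draw most of their ATP from this chain.

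RNA libraries held 8.51 to 36.7 M reads (M for mega, median 11.6) and ATAC libraries 1.24 to 6.24 M reads in peaks (median 3.55). Replicates differed by more than sampling noise in every pair, with chi-square per degree of freedom of 2.44 to 39.6 for RNA and 2.06 to 2.58 for ATAC. The RNA pair of KCl 6 h, on which many results below rest, had the 39.6, and the next highest pair was control 1 h with 10.4. The deepest RNA library, control 1 h A, stood highest among controls for complex IV, with a median 0.17 above the mean of controls on the log2 scale. All 9 neuron markers were measured, with a summed level of 47218 to 52873 in controls and 46802 to 55290 in stimulated libraries, and in each of the 6 comparisons 5 or 6 of them were higher and 0 to 2 lower. Their medians were 0.28, 0.39 and 0.40 with BDNF at 1, 6 and 10 h and 0.20, 0.42 and 0.34 with KCl (log2), so the median of these markers rose as that of the members did. The single markers differed. With BDNF Gad1, Gad2, Slc17a6, Slc17a7 and Syp were higher at each time and Map2 was not called. Tubb3 and Rbfox3 were lower at BDNF 6 h (-0.35 and -0.36) and 10 h (-0.30 and -0.36). Astrocyte markers, of which 4 of 5 were tested, summed to 8839 to 11818 in controls, and all 4 were lower at BDNF 6 h (8668 to 9039), KCl 6 h (7027 to 8307) and KCl 10 h (7729 to 8227). Of 5 oligodendrocyte markers, 4 were lower and 1 was higher at BDNF 6 h and at KCl 6 h. Their sums were 1547 to 1638 and 1541 to 1759 there, against 1853 to 2140 in controls. The 4 proliferation markers summed to 3945 to 6629 in controls and to less at BDNF 6 h (3466 to 3792, 3 lower), BDNF 10 h (3575 to 3718, 3 lower), KCl 6 h (2844 to 3188, 2 lower) and KCl 10 h (2744 to 3064, 4 lower). Microglial markers (86.9 to 110) and endothelial markers (29.6 to 60.1) were low in controls. In such bulk samples fewer cells of a type and less RNA per cell cannot be told apart, and the part of neurons or of these other cells in the results was not tested.

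Promoters of 5 members are shown because later results return to them. Ndufa3, Ndufc1, Ndufs4 and Sdhd have a promoter peak that was lower with KCl, and Cox6a1 has the highest RNA level per kb and is among the largest rises. Capitals mark letters of a motif on either strand, namely AAGATGGC, GCGCATGC, CCGGAAG, TCAAGGTCA or TGACGTCA, listed respectively for YY1, NRF1, ETS factors, ERR and CREB. Sequences are from RefSeq on GRCm38.p6, and are read 5′ to 3′ on the strand of the gene, from 250 bases before the start site to 50 after it.
Ndufa3, chr7:3617123-3617422, plus strand: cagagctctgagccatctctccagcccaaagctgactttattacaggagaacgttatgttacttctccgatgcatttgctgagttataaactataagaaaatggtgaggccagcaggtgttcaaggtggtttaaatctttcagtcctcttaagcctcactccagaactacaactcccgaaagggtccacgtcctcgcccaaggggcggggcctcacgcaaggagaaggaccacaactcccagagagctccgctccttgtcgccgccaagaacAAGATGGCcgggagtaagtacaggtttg
Ndufc1, chr3:51408906-51409205, minus strand: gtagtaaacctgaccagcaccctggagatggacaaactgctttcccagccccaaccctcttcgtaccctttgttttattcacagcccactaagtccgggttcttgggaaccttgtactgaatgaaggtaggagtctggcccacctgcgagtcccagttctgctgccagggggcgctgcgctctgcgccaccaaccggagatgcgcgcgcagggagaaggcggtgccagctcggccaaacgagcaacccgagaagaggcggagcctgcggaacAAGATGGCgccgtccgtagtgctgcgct
Ndufs4, chr13:114388045-114388344, minus strand: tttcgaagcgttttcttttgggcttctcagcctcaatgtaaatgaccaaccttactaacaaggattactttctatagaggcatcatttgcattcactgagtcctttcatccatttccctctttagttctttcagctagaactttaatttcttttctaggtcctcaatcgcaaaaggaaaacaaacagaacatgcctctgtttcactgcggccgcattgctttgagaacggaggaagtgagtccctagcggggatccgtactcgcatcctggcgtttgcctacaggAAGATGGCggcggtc
Sdhd, chr9:50603800-50604099, minus strand: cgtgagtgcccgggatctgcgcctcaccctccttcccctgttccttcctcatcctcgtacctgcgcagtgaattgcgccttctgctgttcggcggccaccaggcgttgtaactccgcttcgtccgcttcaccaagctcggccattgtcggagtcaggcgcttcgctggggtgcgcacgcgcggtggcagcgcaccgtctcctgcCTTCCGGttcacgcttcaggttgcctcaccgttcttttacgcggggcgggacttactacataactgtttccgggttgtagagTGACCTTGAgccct
Cox6a1, chr5:115348909-115349208, minus strand: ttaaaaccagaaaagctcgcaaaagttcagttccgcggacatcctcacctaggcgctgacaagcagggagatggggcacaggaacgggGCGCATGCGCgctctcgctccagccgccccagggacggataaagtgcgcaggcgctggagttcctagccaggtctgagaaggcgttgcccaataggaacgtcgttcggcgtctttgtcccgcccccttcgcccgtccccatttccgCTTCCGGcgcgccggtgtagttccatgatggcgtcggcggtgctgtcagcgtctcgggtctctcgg
The YY1 letters begin at base 23 of the transcript in Ndufa3 and Ndufc1 and at base 36 in Ndufs4, counting the start site as base 1. Of 14 genes with a sequence and a promoter peak lower with KCl, these 3 were the only ones with YY1 letters, so the promoters shown are not typical of that set. Sdhd holds an ETS match at base -46 and an ERR match at base 37. Cox6a1 holds NRF1 letters on both strands, overlapping at bases -162 and -160, and an ETS match at base -16.

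The first question was how strongly each complex is expressed at rest. Levels between genes are given as normalized reads per kb of exon, as the mean ± SD of the 6 controls. Exon length is the union of the exons of all annotated transcripts of a gene, so a level per kb also depends on the annotation. By this count Ndufb2 has 5628 bases and Uqcrc1 4135. Complex IV had the highest median over its genes (549), followed by complex III (516), complex II (378), complex I subunits (222) and assembly factors (80.3), while the median of 16015 tested genes with an exon length was 77.7. Within complex IV the genes ranged from Cox6b2 (40.9 ± 16.9), an isoform known from testis, to Cox6a1 (3309 ± 288), the widely expressed isoform of subunit 6A. Complex I subunits ranged from Ndufb2 (33.2 ± 2.64) to Ndufc2 (1196 ± 59.7), both accessory subunits of the membrane arm. Assembly factors ranged from Ndufaf2 (38.8 ± 5.83) to Ndufaf1 (105 ± 9.70). Complex II ranged from Sdhc (231 ± 12.1) to Sdhd (715 ± 25.4), its membrane anchors, and complex III from the core protein Uqcrc1 (203 ± 9.03) to the small subunit Uqcr10 (860 ± 86.2). Ndufa4, first counted with complex I and later assigned to complex IV, stood at 830 ± 38.5.

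Isoform pairs of complex IV were uneven. Cox4i1, Cox6a1, Cox6b1, Cox7a2, Cox7b and Cox8a carried the RNA, and their partners known from lung, muscle, heart or testis were at the bottom of the table, with means over the 18 libraries of 1.02 for Cox4i2, 5.96 for Cox6a2, 4.69 for Cox7a1, 1.248 for Cox7b2, 1.20 for Cox8b and 0.159 for Cox8c. Cox6b2 was the partner that passed the minimum.

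BDNF raised members of every complex by 10 h. With limma on log2(normalized reads + 1), against the 6 controls and at a Benjamini-Hochberg adjusted p below 0.1 over all 16209 genes, 15 of 67 members were higher and 1 lower at 1 h, 42 higher and 1 lower at 6 h, and 50 higher and 1 lower at 10 h. Of all genes, 21.3% were higher and 19.0% lower at 1 h, 22.1% and 21.1% at 6 h, then 21.1% and 19.5% at 10 h, so that the share of members higher at 1 h was near that of all genes. The median difference over members was 0.13, 0.24 and 0.28 on the log2 scale at 1, 6 and 10 h, while the median over all genes was 0.00, -0.00 and -0.01.

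At 1 h of BDNF the counts by class were small, and 21.3% of all genes were higher. Whether the classes differed was not tested. Complex III had 5 of 8 members higher, complex IV 4 of 12, complex I subunits 4 of 34 and complex II 0 of 4. Cox5a, a matrix-side subunit of complex IV, had 793.8 and 702.2 normalized reads with BDNF against a lowest, median and highest control of 529.9, 549.4 and 627.8. Both stimulated libraries lay above all controls, a difference of 0.42 ± 0.086 (log2, SE; adjusted p = 0.000596). Uqcrb, which lies at the ubiquinone-binding region of complex III, reached 542.9 and 474.0 against 347.4, 387.6 and 443.3 in controls (0.38 ± 0.12, adjusted p = 0.0149). Ndufaf7, a methyltransferase needed for the assembly of complex I, was the member that fell. It had 222.0 and 222.1 reads against 294.5, 310.4 and 340.5 in controls, below every control (-0.49 ± 0.081, adjusted p = 5.48e-05). The count at 1 h depended on single libraries. Without the BDNF 1 h library A it was 1 higher and 2 lower, without B 8 and 1, without control 6 h B 9 and 1, without control 1 h A 25 and 2, without either KCl 6 h library 24 and 2, and upper-quartile scaling gave 2 higher and 7 lower. Cox5a and Uqcrb rose and Ndufaf7 fell in all 5 tools and scalings tried.

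At 6 and 10 h of BDNF the rise was spread over the complexes. Complex I subunits had 20 of 34 higher at 6 h and 25 of 34 at 10 h, complex III 7 and 8 of 8, complex IV 9 of 12 at both times, and complex II 1 and 4 of 4. The median difference at 10 h was 0.31 for complex I subunits, 0.24 for assembly factors, 0.22 for complex II, 0.35 for complex III and 0.28 for complex IV. Leaving out 1 stimulated library lowered the counts to 28 higher and 0 lower (without BDNF 6 h A) or 16 and 1 (without B) at 6 h, and to 18 and 1 at 10 h (without BDNF 10 h B). In all 5 tools and scalings 37 members were higher at 6 h and 43 at 10 h.

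Among single genes, Ndufaf4, an assembly factor of complex I, had the largest rise of the members at 6 h. It had 619.8 and 602.0 reads against 370.2, 399.7 and 425.1 in controls, with no overlap (0.62 ± 0.089, adjusted p = 1.02e-05). Uqcrq, a small subunit of complex III, had 1013 and 1174 reads at 6 h, then 1069 and 1221 at 10 h against 673.0, 752.4 and 865.9 in controls. These are differences of 0.54 and 0.61 ± 0.10 (adjusted p = 0.000271 and 0.000107), and both groups lay above all controls. Ndufb6, an accessory subunit of complex I, rose to 386.4 and 411.7 at 6 h from 243.5, 273.4 and 311.6 (0.53 ± 0.084, adjusted p = 3.56e-05). Ndufaf6 rose at 10 h, with 73.5 and 80.2 reads against 40.1, 48.6 and 64.7 (0.63 ± 0.20, adjusted p = 0.0185).

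Cox7a2l, which is known to help join complexes III and IV into supercomplexes, was the gene of complex IV that fell. It had 911.6 and 955.2 reads at BDNF 6 h and 860.1 and 1069 at 10 h, below all controls (1088, 1139 and 1228), and fell by 0.30 and 0.26 ± 0.090 (adjusted p = 0.0131 and 0.0318). Its close relative Cox7a2 had 540.5 and 499.5 reads at 6 h against 414.7, 473.2 and 521.1, an overlap with controls (0.14 ± 0.10, adjusted p = 0.305). Cox6b2 had 25.2 and 26.5 reads at 6 h against 25.6, 46.2 and 67.4, and was not called (-0.68 ± 0.33, adjusted p = 0.111).

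**Figure D1:**
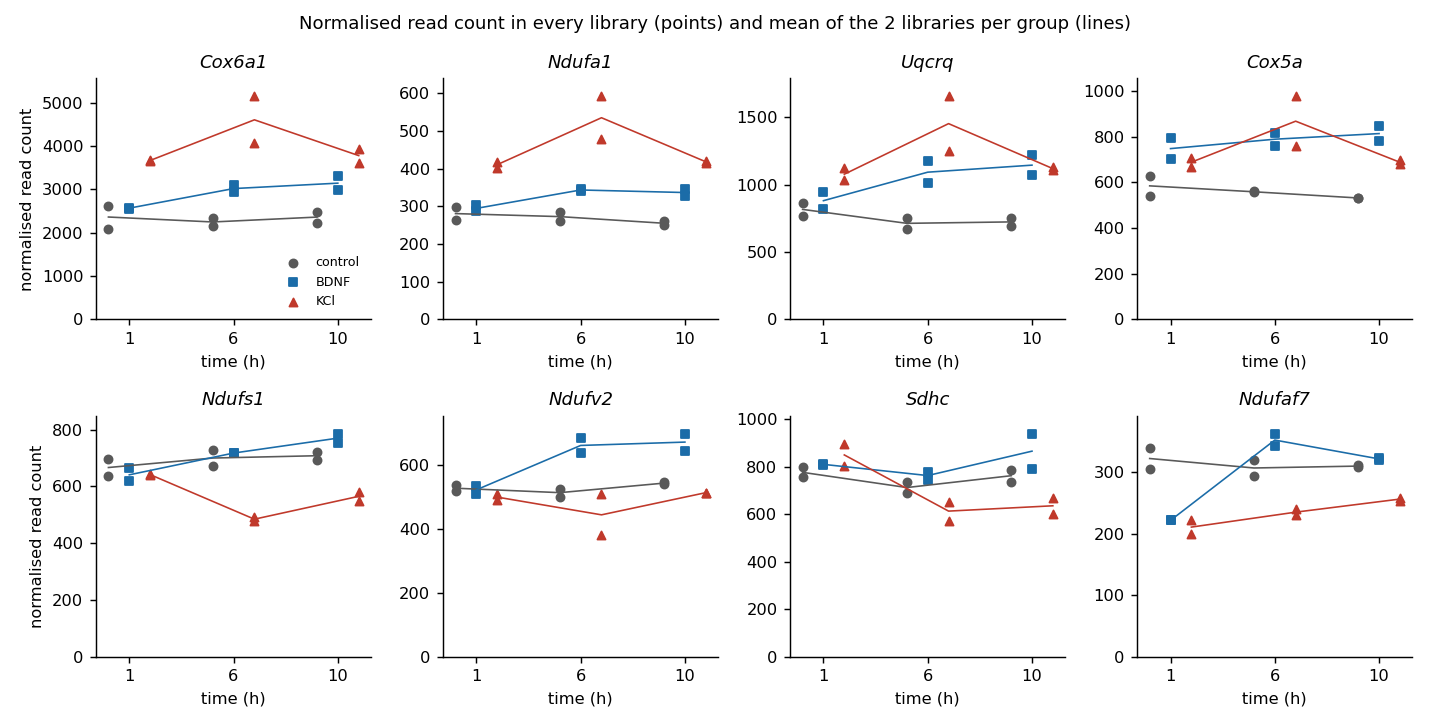
Normalized read count (vertical axes, from 0) at 1, 6 and 10 h (horizontal axes) for 8 members, with 1 point per library for controls (circles), BDNF (squares) and KCl (triangles) and lines through the means of 2 libraries. Cox6a1, Ndufa1 and Uqcrq peak with KCl at 6 h, Ndufs1, Ndufv2 and Sdhc dip with KCl at 6 h, and Ndufaf7 is low with both stimuli at 1 h.

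With KCl most called members were higher, with large rises in small subunits of complexes I, III and IV. In complex II and in the complex I core, 0 and 0 genes were lower at 1 h, 2 and 2 at 6 h, then 1 and 1 at 10 h. These are counts among 4 and 7 genes, and those of the core lay below the shares of all genes lower. At 1 h 39 members were higher and 5 lower, at 6 h 43 and 7, and at 10 h 38 and 4. Of all genes, 26.5% were higher and 28.2% lower at 1 h, 33.4% and 33.1% at 6 h, then 29.0% and 28.2% at 10 h. The median difference over members was 0.24, 0.37 and 0.27 (log2), and that over all genes 0.00, 0.01 and 0.01. The counts stayed between 30 and 50 at 1 h, 42 and 55 at 6 h, then 35 and 44 at 10 h when 1 library was left out. Under upper-quartile scaling, which moved the median of all genes by -0.10 at 6 h and -0.08 at 10 h, they were 40 higher and 12 lower at 6 h, then 33 and 8 at 10 h.

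Complex IV and complex III rose most. At KCl 6 h complex IV had 10 of 12 genes higher and 1 lower, with a median of 0.65, and complex III had 7 of 8 higher and 1 lower, with a median of 0.52. Cox6a1 had 3648 and 3682 reads at 1 h, 4060 and 5145 at 6 h, then 3939 and 3615 at 10 h, against 2096, 2282 and 2626 in controls. All 6 KCl libraries lay above all controls, with differences of 0.66, 0.98 and 0.70 ± 0.084 (adjusted p = 1.22e-06, 2.59e-09 and 6.21e-07). Cox6b1, the widely expressed isoform of subunit 6B, had 1047 and 1404 reads at 6 h against 600.4, 648.5 and 793.3 (0.87 ± 0.10, adjusted p = 3.69e-07). Its isoform Cox6b2 went the other way at all 3 times. Its KCl libraries held 13.6 to 24.6 reads, below the lowest control of 25.6, with differences of -1.15, -1.13 and -1.19 ± 0.33 (adjusted p = 0.0058, 0.00493 and 0.00462).

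In complex III the small subunits led. Uqcrq had 1251 and 1657 reads at 6 h against 673.0, 752.4 and 865.9 (0.94 ± 0.10, adjusted p = 9.04e-08), and Uqcr10 had 720.7 and 933.1 against 430.0, 503.2 and 564.8 (0.71 ± 0.10, adjusted p = 3.03e-06). Uqcrh, the hinge protein next to cytochrome c1, had 1054 and 1366 against 678.2, 712.9 and 805.8 (0.73 ± 0.085, adjusted p = 1.96e-07), though near-identical pseudogene copies in the table may share its reads. The core protein Uqcrc1 rose less (1052 and 1049 against 809.6, 829.8 and 911.5; 0.32 ± 0.062, adjusted p = 0.000103). Uqcrc2, its partner in the core, fell to 916.3 and 931.9 from 1006, 1018 and 1090 (-0.16 ± 0.060, adjusted p = 0.0236), and was singled out after its values were seen.

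Complex II gave both directions. At KCl 6 h Sdha, the flavoprotein that oxidizes succinate, had 1689 and 1660 reads against 1927, 1978 and 2064 in controls, below every control (-0.24 ± 0.056, adjusted p = 0.00071). Sdhc, a membrane anchor, had 573.2 and 654.1 reads against 689.6, 746.5 and 797.9 (-0.29 ± 0.079, adjusted p = 0.00307). Sdhb, the iron-sulfur subunit, had 534.8 and 607.8 against 586.9, 614.1 and 649.5, an overlap with controls and no call (-0.11 ± 0.083, adjusted p = 0.242). Sdhd, the other anchor, rose instead, with 987.1 and 1191 against 832.0, 879.0 and 928.6 (0.30 ± 0.073, adjusted p = 0.00121). At 1 h Sdha (2232 and 2289, adjusted p = 0.00777), Sdhc (896.5 and 804.1, adjusted p = 0.068) and Sdhd (1041 and 988.0, adjusted p = 0.025) had been above all controls, by 0.19, 0.18 and 0.21. At 10 h Sdhc was still low (669.8 and 602.3, -0.24, adjusted p = 0.0156) and Sdha had returned among the controls (1976 and 1855, adjusted p = 0.474).

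**Figure D2:**
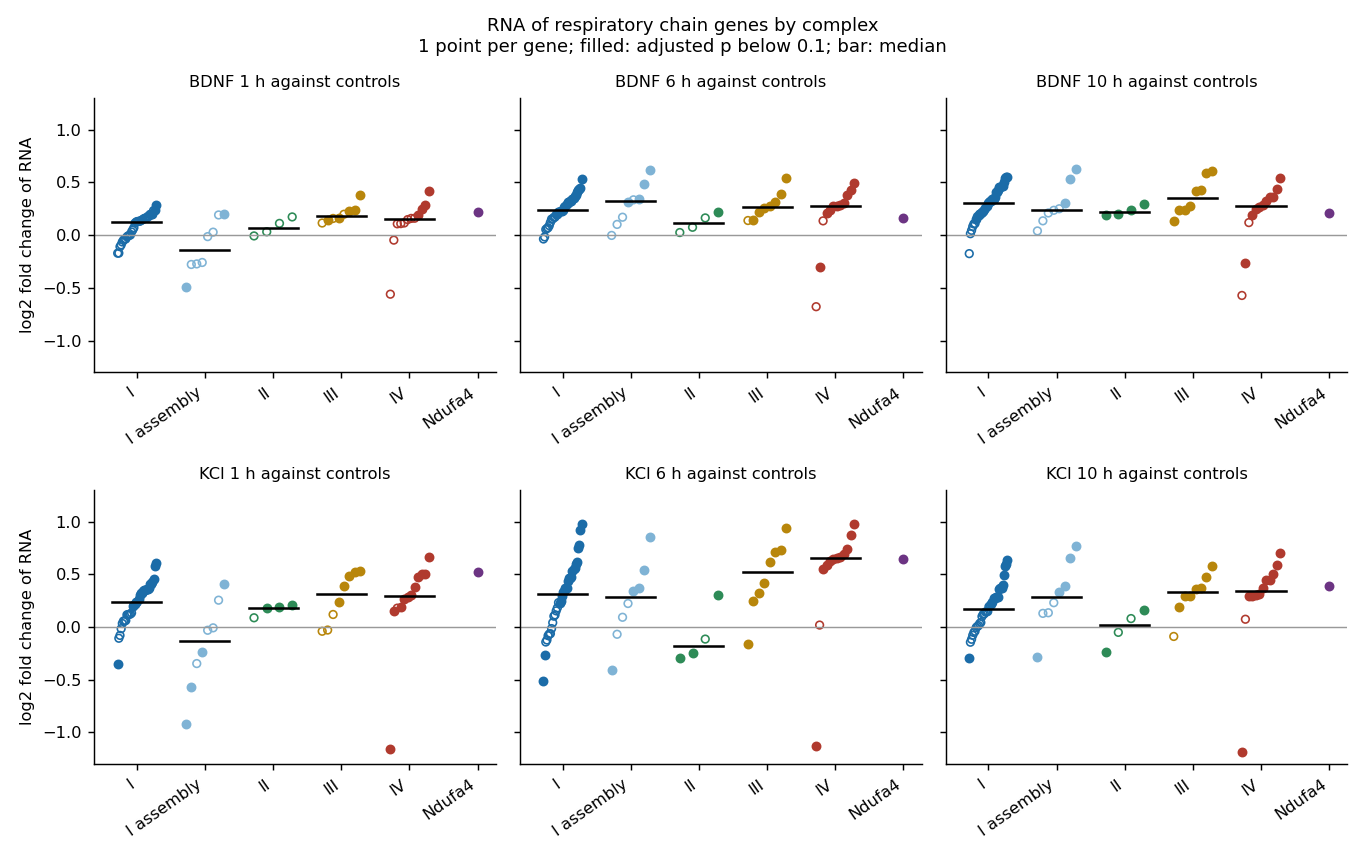
Log2 fold change of RNA against controls (vertical axes) for each of the 67 members in the 6 comparisons, by class (horizontal axes), with filled points for an adjusted p below 0.1 and a bar at the class median. With BDNF nearly all filled points lie above 0, and with KCl at 6 h the medians range from -0.18 for complex II to 0.65 for complex IV.

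The catalytic core and the accessory subunits of complex I were counted apart, with no test of the difference. The 7 nuclear core genes, with Ndufs1, Ndufs7, Ndufs8 and Ndufv2 among them, carry the NADH site, the iron-sulfur clusters and the path to ubiquinone, and the other 27 surround them. At KCl 6 h the core had 1 gene higher and 2 lower with a median of -0.08, while the accessory subunits had 19 higher and 0 lower with a median of 0.37, against 33.4% higher and 33.1% lower of all genes. At BDNF 10 h the core had 7 of 7 higher with a median of 0.34, and the accessory subunits 18 of 27 with a median of 0.28. The core genes had 1291 to 8086 bases of exon (median 2178) and the accessory genes 419 to 6883 (median 1251), and the part of exon length in these counts was not tested.

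Ndufs1, the largest core subunit, had 476.8 and 492.0 reads at KCl 6 h and 581.8 and 547.8 at 10 h against 635.2, 695.4 and 727.4 in controls, below every control at both times. It fell by 0.51 and 0.29 ± 0.067 (adjusted p = 9.95e-07 and 0.00104). Ndufv2, which carries an iron-sulfur cluster beside the NADH site, had 380.5 and 508.2 reads at KCl 6 h against 500.9, 531.6 and 546.7, so that 1 of the 2 libraries lay within the controls (-0.26 ± 0.084, adjusted p = 0.00979). Ndufs7 was the core gene that rose (340.2 and 387.8 against 218.8, 234.3 and 266.0; 0.60 ± 0.10, adjusted p = 3.97e-05). It was singled out after its values were seen.

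Accessory subunits gave the largest rises of complex I. Ndufa1, a small protein of the membrane arm, had 402.5 and 418.1 reads at KCl 1 h, 477.8 and 591.5 at 6 h, then 415.6 and 420.4 at 10 h against 249.1, 262.6 and 296.8 in controls. These were differences of 0.61, 0.98 and 0.63 ± 0.088 (adjusted p = 5.97e-06, 4.18e-09 and 3.88e-06), with no overlap. Ndufb6 had 512.2 and 532.5 reads at 6 h (0.92 ± 0.084, adjusted p = 5.31e-09). Ndufab1, the mitochondrial acyl carrier protein, was the accessory gene that fell at KCl 1 h, with 290.2 and 291.9 reads against 356.9, 375.8 and 381.8 (-0.35 ± 0.085, adjusted p = 0.00154), and a pseudogene copy in the table may share its reads. Ndufa4 rose at all 3 KCl times, reaching 1598 and 2003 reads at 6 h against 1084, 1135 and 1237 (0.64 ± 0.074, adjusted p = 1.86e-07).

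Assembly factors of complex I gave few rises at 1 h and more at 6 h. At KCl 1 h, 1 of 8 was higher and 3 were lower, with a median of -0.14, and at BDNF 1 h 1 was higher and 1 lower, also with a median of -0.14. At 6 h 4 of 8 were higher with either stimulus, with medians of 0.33 for BDNF and 0.28 for KCl. Ndufaf1, which stabilizes an early intermediate of complex I, had 91.4 and 74.8 reads at KCl 1 h against 142.9, 156.7 and 177.1, below all controls (-0.92 ± 0.14, adjusted p = 7.07e-06), and at 6 h it was above them with 188.8 and 222.3 (0.37, adjusted p = 0.0205). Ndufaf7 was low at all 3 KCl times, with 222.3 and 199.9, 230.1 and 240.8, and 254.2 and 259.2 reads (-0.57, -0.41 and -0.29 ± 0.081, adjusted p = 5.23e-06, 0.000164 and 0.00581). Ndufaf2 had 205.5 and 210.7 reads at KCl 6 h against 96.9, 115.7 and 132.6, with no overlap (0.86 ± 0.13, adjusted p = 7.68e-06). Ndufaf8 rose at KCl 10 h to 102.7 and 82.8 from 48.0, 53.7 and 75.7 (0.65 ± 0.19, adjusted p = 0.00615).

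Over all 6 comparisons with controls, 14 members were higher at every BDNF time, 29 at every KCl time and 11 at all 6. These 11 were Cox4i1, Cox5a, Cox5b, Cox6b1, Ndufa4, Ndufa9, Ndufb9, Ndufb11, Uqcr10, Uqcrc1 and Uqcrq. Cox4i1, the widely expressed isoform of subunit 4, had 2208 and 2095 reads at BDNF 1 h and 2874 and 3443 at KCl 6 h against 1715, 1883 and 2148 in controls (0.19 and 0.74 ± 0.081, adjusted p = 0.0711 and 7.62e-08). Ndufa6, Ndufaf3, Ndufc1 and Ndufs4 were called in none of the 6. The share of all genes with each of these patterns is not given, so whether the counts are unusual was not tested. Ndufs4, an accessory subunit whose loss causes Leigh syndrome, had 354.9 to 441.0 reads with BDNF and 371.6 to 497.8 with KCl against 347.5 to 425.5 in controls.

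**Figure D3:**
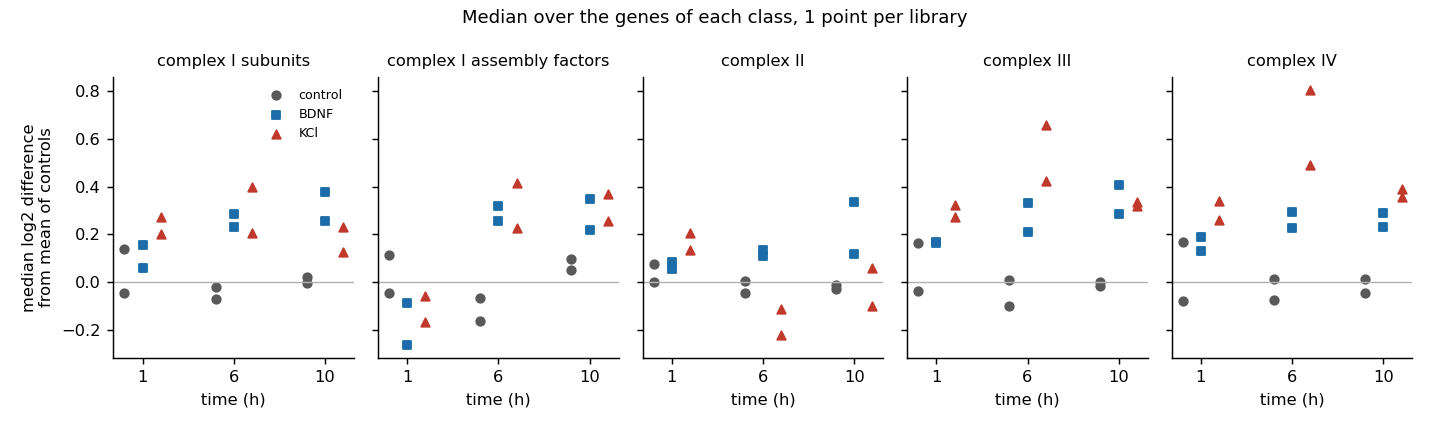
Median over the genes of each class of the log2 difference from the mean of controls (vertical axis), with 1 point per library at 1, 6 and 10 h. The KCl 6 h libraries lie at 0.49 and 0.80 for complex IV and at -0.22 and -0.11, below all controls, for complex II.

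The next question was whether BDNF and KCl differed from each other. In the direct contrast in the same model, 4 members were higher and 17 lower with BDNF than with KCl at 1 h, 12 and 22 at 6 h, then 17 and 4 at 10 h. Of all genes, 24.6% were higher and 18.2% lower at 1 h, 29.6% and 27.8% at 6 h, then 23.1% and 21.8% at 10 h. Without BDNF 1 h B the 1 h counts were 4 and 6 and without KCl 1 h B 2 and 10, without KCl 6 h B the 6 h counts were 12 and 10, and without BDNF 10 h B or KCl 10 h B the 10 h counts were 7 and 5 or 8 and 4.

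At 6 h the complexes lay on different sides. Complex IV had 0 genes higher and 10 of 12 lower with BDNF than with KCl (median -0.39) and complex III 1 higher and 4 lower (median -0.23), whereas complex II had 3 of 4 higher and 0 lower (median 0.30). The complex I core had 5 of 7 higher and 0 lower (median 0.23), and the accessory subunits 1 higher and 6 lower (median -0.10). At 10 h 6 of 7 core genes and 5 of 27 accessory genes were higher with BDNF, with medians of 0.31 and 0.07.

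Ndufv2 had 637.8 and 685.3 reads with BDNF against 380.5 and 508.2 with KCl at 6 h (0.59 ± 0.10, adjusted p = 6.21e-05), and Ndufs1 had 716.1 and 718.2 against 476.8 and 492.0 (0.57 ± 0.082, adjusted p = 6.09e-06). Ndufs8, a core subunit with iron-sulfur clusters, had 335.1 and 381.5 against 240.9 and 257.0 at 6 h and 361.7 and 418.5 against 272.6 and 278.8 at 10 h (0.52 and 0.50 ± 0.11, adjusted p = 0.000483 and 0.00125). In none of these did the 2 groups overlap. On the other side, Ndufa1 had 340.5 and 345.8 reads with BDNF against 477.8 and 591.5 with KCl at 6 h (-0.63 ± 0.11, adjusted p = 4.55e-05), and Cox6a1 2927 and 3107 against 4060 and 5145 (-0.60 ± 0.10, adjusted p = 5.32e-05). Ndufb2 differed at 1 h, with 162.7 and 168.7 against 287.7 and 218.1 (-0.59 ± 0.14, adjusted p = 0.00219).

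Exon length was taken as the union of all annotated exons rather than the length of 1 transcript. It went along with the signed log2 difference under both stimuli, with shorter genes tending to lie higher. Among members, Spearman's rho between exon length and the log2 difference was -0.40, -0.49 and -0.48 at KCl 1, 6 and 10 h and -0.26, -0.28 and -0.25 at BDNF 1, 6 and 10 h, over 67 genes that share libraries and scaling. Over all 16015 tested genes with an exon length it was -0.14, -0.13 and -0.11 with KCl and -0.12, -0.23 and -0.24 with BDNF. At KCl 6 h the 33 members under 1500 bases of exon had a median of 0.53, with 26 higher and 1 lower, and the 34 longer members a median of 0.23, with 17 higher and 6 lower. The 2567 short genes of the whole table had a median of 0.24 and the longer ones -0.03. Of the subunits that fell at KCl 6 h, Ndufs1 had 8086 bases, Sdha 4126, Sdhc 3250, Uqcrc2 2552 and Ndufv2 2147, and Ndufa1 (419) was the shortest member. Uqcrc1 (4135) was long and rose, and Cox6b2 (1108) was under 1500 bases and fell. The part of exon length in the difference between complexes was not tested.

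**Figure D4:**
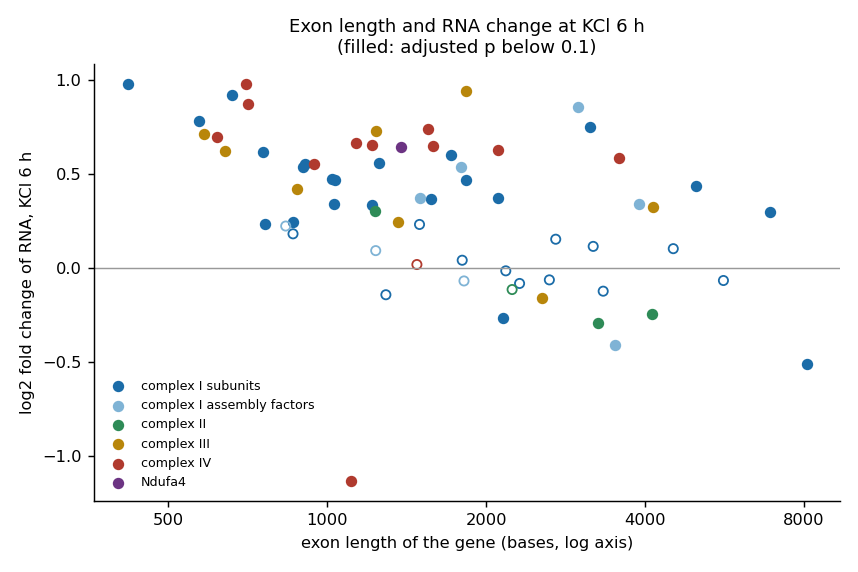
Exon length in bases (horizontal log axis) against the log2 fold change of RNA at KCl 6 h (vertical axis) for the 67 members, colored by class, filled where the adjusted p was below 0.1. Short members lie mostly above 0 and the longest member, Ndufs1, lies at -0.51.

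Genes that work with the chain were read from lists. Of the 13 subunits encoded in mitochondrial DNA, 0 were called higher in any of the 6 comparisons. With BDNF 0, 0 and 2 of them were lower at 1, 6 and 10 h, and with KCl 4, 5 and 2. These were near or below the share of all genes lower with BDNF (19.0%, 21.1% and 19.5%) and with KCl (28.2%, 33.1% and 28.2%). At an adjusted p of 0.00367, mt-Nd5 had 26025 and 23108 reads at KCl 6 h against 31484 to 44811 in controls (-0.67 ± 0.17). For BDNF 10 h the 2 libraries disagreed, with summed mitochondrial reads of 301399 and 477734 against 388574 to 500436 in controls.

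ATP synthase uses the proton gradient of the chain. Of 19 subunit genes and factors tested, 10, 11 and 13 were higher with BDNF at 1, 6 and 10 h (1, 1 and 0 lower) and 14, 15 and 12 with KCl (1, 2 and 2 lower), while 21.3%, 22.1% and 21.1% of all genes were higher with BDNF and 26.5%, 33.4% and 29.0% with KCl. Atp5g1, a gene for the rotating c-ring, had 584.3 and 636.5 reads at BDNF 10 h against 338.7 to 400.3 in controls (0.72 ± 0.095, adjusted p = 6.03e-06). Atp5s, a factor rather than a core subunit, fell at KCl 6 h to 51.1 and 45.1 from 143.0 to 176.0 (-1.75 ± 0.13, adjusted p = 1.78e-10). A list of 17 genes for citric acid cycle enzymes also held Pdhb, of pyruvate dehydrogenase, and the NADP-linked Idh2. Of these genes, 5, 10 and 11 were higher with BDNF (1, 2 and 1 lower) and 5, 10 and 10 with KCl (3, 5 and 1 lower). The counts higher at 1 h and that lower at KCl 6 h were near the shares of all genes (21.3% and 26.5% higher, 33.1% lower). Cycs, cytochrome c, rose with BDNF at 10 h to 695.1 and 653.1 from 390.6 to 449.8 (0.72 ± 0.090, adjusted p = 2.79e-06), and Cyc1, the cytochrome c1 of complex III, to 1318 and 1355 from 925.0 to 1010 (0.48 ± 0.074, adjusted p = 4.33e-05). Etfb and Etfa, which feed electrons from fatty acid oxidation, fell at KCl 6 h by 1.45 ± 0.12 and 1.23 ± 0.15 (adjusted p = 1.36e-09 and 3.87e-07), and of the 5 carriers 3 were higher and 2 lower there.

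Assembly factors outside the Ndufaf genes had more members lower than higher in each of 4 lists at every KCl time, where 28.2%, 33.1% and 28.2% of all genes were lower at 1, 6 and 10 h. The shares of all genes higher with KCl were 26.5%, 33.4% and 29.0%. For BDNF 21.3%, 22.1% and 21.1% of all genes were higher and 19.0%, 21.1% and 19.5% lower. Of 9 for complex I, 0 were higher and 4 lower at KCl 1 h, 2 and 7 at 6 h, then 2 and 6 at 10 h, against 0 and 4, 3 and 2, and 4 and 0 with BDNF. Of 18 for complex IV, 3 were higher and 10 lower at KCl 1 h, 3 and 7 at 6 h, then 2 and 7 at 10 h, against 0 and 5, 5 and 1, and 7 and 1 with BDNF. For complex II (4 genes) the counts were 0 and 2, 0 and 3, and 0 and 3 with KCl and 0 and 1, 1 and 0, and 0 and 0 with BDNF, and for complex III (6 genes) 0 and 2, 1 and 3, and 1 and 2 with KCl and 1 and 3, 2 and 0, and 2 and 0 with BDNF. Several of the KCl counts were near the share of all genes, such as 7 of 18 lower for complex IV at 6 h. The fall of Cox17, the copper chaperone that supplies complex IV, was the largest fall of these lists, to 13.6 and 12.8 reads at KCl 1 h from 158.6 to 183.5 in controls (-3.61 ± 0.11, adjusted p = 1.22e-16). With BDNF 1 h it had 117.1 and 106.9 (-0.62, adjusted p = 0.000144). Sco1, which hands copper on to complex IV, had 79.0 and 64.2 reads at KCl 1 h against 166.5 to 191.9 (-1.35 ± 0.11, adjusted p = 1.45e-09). Lyrm7, a chaperone of the Rieske protein of complex III, fell at KCl 6 h to 14.7 and 15.0 from 57.1 to 77.3 (-2.06 ± 0.20, adjusted p = 1.36e-08), and Timmdc1, a membrane-arm factor of complex I, to 95.4 and 101.9 from 212.6 to 233.5 (-1.17 ± 0.090, adjusted p = 3.75e-10). Ttc19 of complex III rose there to 1347 and 1452 from 710.2 to 873.1 (0.81 ± 0.078, adjusted p = 1.17e-08).

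Of 17 nuclear regulators of mitochondrial genes, 6, 7 and 6 were higher with BDNF (4, 2 and 2 lower) and 3, 5 and 9 with KCl (7, 4 and 5 lower), against 26.5%, 33.4% and 29.0% of all genes higher and 28.2%, 33.1% and 28.2% lower with KCl. For BDNF these shares were 21.3%, 22.1% and 21.1% higher and 19.0%, 21.1% and 19.5% lower. Several of the counts, such as 4 lower at BDNF 1 h, were near the share of all genes. Nrf1, an activator of respiratory genes, had 868.1 and 885.6 reads at KCl 6 h against 357.3 to 424.1 in controls (1.18 ± 0.082, adjusted p = 9.08e-11), and Gabpb1, a subunit of the ETS factor GABP, 1053 and 1294 against 498.7 to 569.8 (1.13 ± 0.087, adjusted p = 4.44e-10). Ppargc1a, the coactivator of mitochondrial biogenesis, rose at BDNF 6 h to 431.5 and 397.1 from 262.0 to 325.8 (0.51 ± 0.094, adjusted p = 0.000203), and had 315.6 and 281.3 at KCl 6 h, an overlap with controls (adjusted p = 0.735).

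Open chromatin at the promoters was a readout the choice of genes did not use. Each of the 67 members had 1 ATAC peak counted for it within 1000 bp before to 100 bp after an annotated start site, 28 of them shared with the start of another coding gene. With edgeR on LOESS-scaled counts, 1 peak was higher and 1 lower at BDNF 1 h, and 0 were called at 6 and 10 h. At an unadjusted p below 0.05 there were 4 and 2 at 6 and 10 h, and DESeq2 called 1 and 2, all lower. Of all 15271 promoter peaks tested, 4.62% were higher and 2.76% lower at BDNF 1 h, 1.75% and 0.904% at 6 h, then 1.83% and 1.58% at 10 h. The higher peak was that of Ndufaf2, shared with Ercc8 (chr13:108158179-108159117), with 244.7 and 189.2 scaled counts against 142.5, 172.0 and 199.4 in controls, so that 1 library lay within them (0.35 ± 0.13, adjusted p = 0.0561). The lower peak was that of Cox6c (chr15:35937718-35938450), with 38.8 and 43.7 against 47.6, 62.9 and 73.4 (-0.59 ± 0.24, adjusted p = 0.0967). Without BDNF 1 h A 0 peaks were called, and 1 was called without BDNF 1 h B, either BDNF 6 h library, either KCl 1 h library, control 6 h B or control 10 h B.

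With KCl the called promoter peaks were nearly all lower, while the RNA of most members was higher. At 1 h 1 peak was higher and 9 were lower, at 6 h 0 and 8, and at 10 h 0 and 5. Of all promoter peaks 5.25% were higher and 3.62% lower at 1 h, 2.35% and 2.87% at 6 h, then 1.98% and 2.81% at 10 h. The median over the 67 peaks was -0.11, -0.19 and -0.16 (log2) against 0.00, -0.02 and -0.05 over all promoter peaks, and 45, 49 and 52 of the 67 lay below 0. Of the genes behind the lower peaks, 3 of 9, 5 of 8 and 4 of 5 had higher RNA and 1 had lower RNA at each time. TMM scaling gave 16 and 17 lower peaks at 6 and 10 h, with 10.1% and 15.3% of all promoter peaks lower. Leaving out A or B of the KCl group gave totals of 1 and 4 at 1 h, 1 and 3 at 6 h, then 2 and 1 at 10 h, and without control 1 h B 5 at 6 h. One of the KCl 6 h libraries was the shallowest (1.24 M reads).

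Ndufa3, whose promoter is printed above, had 100.8 and 88.7 scaled counts at KCl 1 h and 94.6 and 112.1 at 6 h against 118.8, 160.1 and 177.7 in controls, below every control (chr7:3617006-3617638; -0.69 ± 0.15 and -0.59 ± 0.18, adjusted p = 0.00258 and 0.0308), and its RNA was higher at 6 h (0.48, adjusted p = 0.000479). Ndufc1 had 80.03 and 77.1 at 1 h and 81.3 and 71.6 at 6 h against 84.7, 119.5 and 153.9 (chr3:51408509-51409262; -0.58 at both times, adjusted p = 0.0329 and 0.0725), with RNA not called. It was singled out after its values were seen. Ndufs4 had 37.7 and 40.01 at 6 h against 59.6, 69.2 and 79.2 (chr13:114387444-114388309; -0.85 ± 0.27, adjusted p = 0.0418). The peak shared by Sdhd and Timm8b had 74.2 and 24.5 at 6 h against 71.2, 104.2 and 114.3, so that only 1 library lay below the controls (chr9:50603576-50604314; -0.77 ± 0.23, adjusted p = 0.0310).

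Of the other named peaks, that of Uqcrb had 101.2 and 134.8 at KCl 1 h against 180.1, 192.5 and 202.8 (chr13:66904922-66905746; -0.68 ± 0.13, adjusted p = 0.000389), with RNA not called. Ndufb10 had 23.1 and 34.0 at 10 h against 41.1, 53.3 and 74.8 (chr17:24724196-24724755; -0.90 ± 0.28, adjusted p = 0.0428), with RNA higher. For Ndufs1 both readouts fell. Its peak, shared with Eef1b2, had 57.1 and 64.0 at 10 h against 85.8, 100.5 and 120.2 (chr1:63176476-63177377; -0.74 ± 0.21, adjusted p = 0.0205). The higher peak at KCl 1 h, shared by Ndufaf7 and Cebpz, had 336.8 and 325.9 against 248.7, 259.3 and 283.5 (chr17:78936799-78937524; 0.34 ± 0.10, adjusted p = 0.0350), while the RNA of Ndufaf7 was lower.

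**Figure D5:**
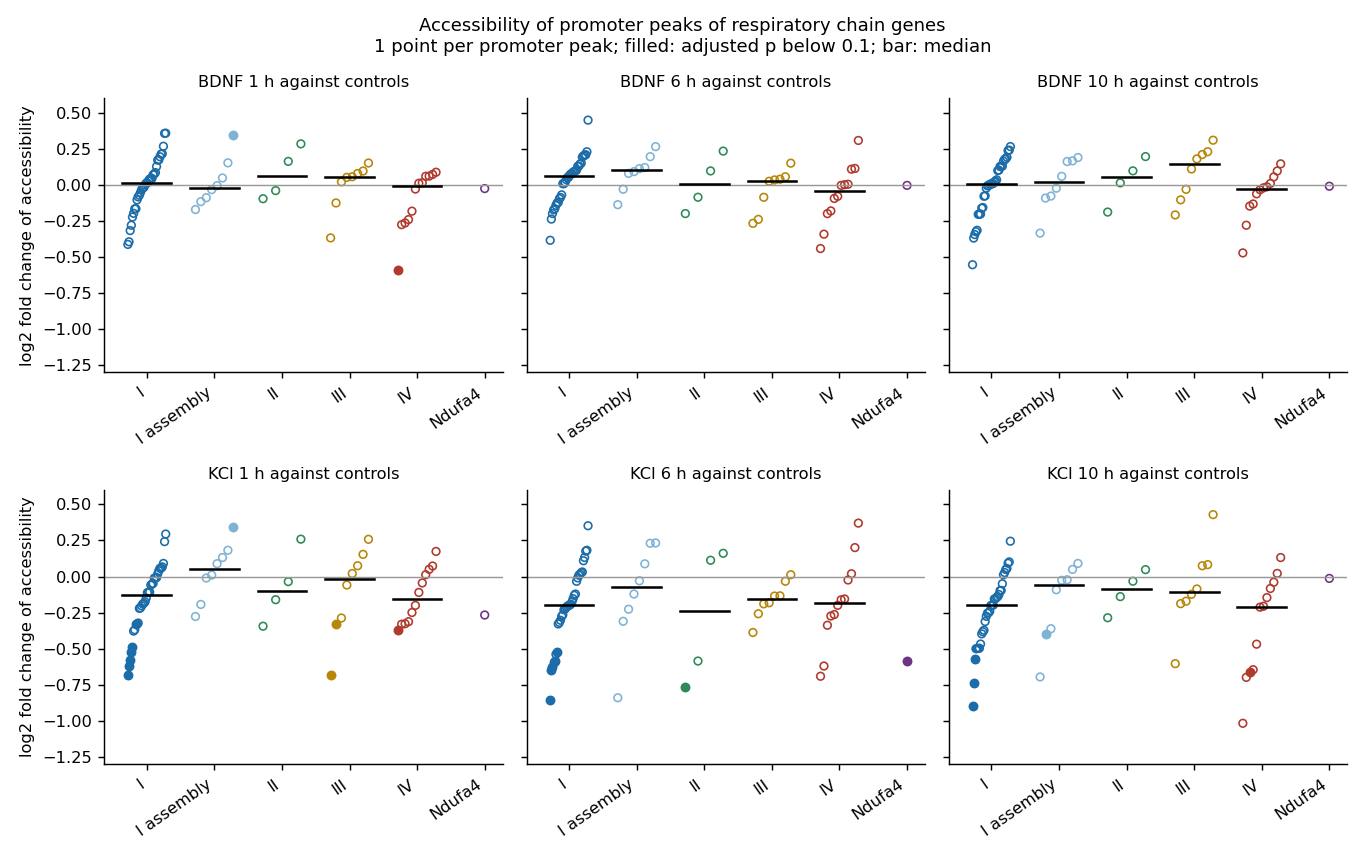
Log2 fold change of ATAC counts in the promoter peak of each member (vertical axes) in the 6 comparisons with controls, by class (horizontal axes), with filled points for an adjusted p below 0.1 and a bar at the class median. With KCl all filled points but that of Ndufaf7 at 1 h lie below 0.

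RefSeq promoters of 250 bases before to 50 after the start were found for 56 of the 67 members (58 windows) and compared with all 32851 windows, on both strands. The NRF1 letters GCGCATGC were in 13.8% of member windows and 2.71% of all, the ETS letters CCGGAAG in 22.4% and 8.86%, the YY1 letters AAGATGGC in 13.8% and 2.75%, the ERR letters TCAAGGTCA in 1.72% and 0.423%, the Sp1 letters GGGCGG in 48.3% and 35.7%, and the CREB letters TGACGTCA in 5.17% and 1.79%. The YY1 letters were in 7 of 30 complex I subunits and in Ndufaf8, and in 0 of the 3, 5 and 10 genes of complexes II, III and IV with a window. They were in 3 of the 14 genes with a window whose peak was lower with KCl and in 8 of all 56. A match is a run of letters in a window, with no measure of binding.

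The last question was whether time in silenced culture alone moved these genes. Between controls of 6 or 10 h and those of 1 h, 0 members were called, as 0.0% of all genes were in either contrast with limma, 0 members had an unadjusted p below 0.05, and edgeR and DESeq2 also called 0 members. The median difference over members was -0.08 at 6 h and -0.05 at 10 h (log2), with 7 and 21 of the 67 members above 0. Each of these groups held 2 libraries, and those of 1 h include control 1 h A, which stood apart for complex IV. A small shift shared by the members could therefore go without a call.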

How the data were processed

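RNA-seq and ATAC-seq libraries of mouse cortical neurons were compared by stimulus and time. Per the labels and the methods of the study, the authors used Trimmomatic, TopHat2 and DESeq2 for RNA and Bowtie2, MACS2 and DiffBind for ATAC, on mm10. RNA was deposited by the authors as a normalized signal, gene counts divided by size factors, from which whole reads were recovered for 100% of values within 0.01. The authors deposited ATAC as raw read counts in 58177 peaks. Deposited columns of log2 fold changes, p-values and scores were not used, and 0 sample columns were left out.

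RNA was tested with limma 3.58.1 in R 4.3.3 (trend and robust) on log2(value + 1) for genes with a mean of at least 10, in 1 fit of 7 levels with the 6 controls pooled. ATAC counts were tested with edgeR 4.0.16 (quasi-likelihood, LOESS offsets), since they proved to be raw counts, and the SE is the log2 fold change divided by the root of F. Calls use a Benjamini-Hochberg adjusted p below 0.1 over all features. DESeq2 1.42.0, edgeR and other scalings, filters and pseudocounts were alternatives, and edgeR on the recovered reads called 5480 genes higher and 5314 lower at KCl 6 h. Tables were joined with Python 3.11.15 and pandas 2.3.3. In data simulated for BDNF 6 h over 16209 genes, 50 genes were changed at each fold, with the same spread for every gene. There 16% of 1.25-fold, 58% of 1.5-fold, 92% of 2-fold and 100% of 4-fold changes were recovered, and 12 unchanged genes were called. Far more genes were called in the real data and their spread differed between pairs, so these rates do not give the power there.

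Library letters A and B are from the column names for RNA and from column order for ATAC, and were not used as pairs in the main fits. Exon lengths, the union of exons over all transcripts of a gene, and start sites came from GENCODE M21 on GRCm38. Members and lists were chosen with earlier results of these data known. Named genes were the 4 Sdh genes, the 3 largest called rises and falls per comparison, the highest and lowest per kb in each class, isoform genes of complex IV, Ndufa4, the 2 largest called rises and falls of each other list per stimulus with Ppargc1a, Cycs and Cyc1, and the 2 largest called promoter peaks per direction, of which the text gives a selection. Others, such as Uqcrc2, Ndufs7, Ndufab1, Ndufc1 and Ndufs8 at 6 h, were named after their values were seen.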

Additional observations from a re-analysis of the deposited data

Results flagged for a closer look

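In the library control 1 h A, the deepest RNA library, Uqcrc1 had 911.5 and Cox5a 627.8 normalized reads, and the median of complex IV was 0.17 above the mean of controls on the log2 scale. Each stood apart from the other 5 controls by Dixon's test, in 3 of 37 sets of 6 controls tested, where chance gives about 1 in 20.

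The direct contrast of BDNF with KCl called 21 members at 1 h, 34 at 6 h and 21 at 10 h. In 5 cases the 2 stimuli were called in opposite directions against controls and the direct contrast was called too. The share of all genes with such opposite calls is not given. Ndufaf4 at 1 h was higher with BDNF and lower with KCl, a difference of 0.44 ± 0.11 (log2, SE, limma adjusted p = 0.00283), although 1 of its KCl libraries lay within the controls. At 6 h Ndufv2 differed by 0.59 ± 0.10 (adjusted p = 6.21e-05) and Uqcrc2 by 0.31 ± 0.073 (adjusted p = 0.00125). At 10 h Ndufs1 differed by 0.45 ± 0.082 (adjusted p = 0.000175) and Sdhc by 0.44 ± 0.097 (adjusted p = 0.00106). In each of these both BDNF libraries were above both KCl libraries.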

How the results depend on the processing

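Members called for RNA at BDNF 1 h (16) came to 7 with DESeq2 on whole reads, 10 with TMM scaling, 2 with controls of the same time, and 9 with no filter or upper-quartile scaling. At an adjusted p below 0.01, 2, 19 and 27 members remained past the threshold at BDNF 1, 6 and 10 h, 25 at KCl 1 h, and 7, 20 and 5 in BDNF against KCl at 1, 6 and 10 h. KCl 1 h gave 29 with controls of the same time. Promoter peaks called at BDNF 1 h (2) came to 0 with controls of the same time, with limma and below 0.01. DESeq2 and TMM each gave 1 at BDNF 6 h and 2 at 10 h. KCl 1 h (10) gave 3 with controls of the same time and 3 below 0.01. KCl 6 h (8) gave 17 with DESeq2, 16 with TMM, 2 with controls of the same time and 1 below 0.01. KCl 10 h (5) gave 20 with DESeq2, 17 with TMM and 0 below 0.01. Of all promoter peaks, 11.2% and 17.5% were lower at KCl 6 and 10 h with DESeq2 and 10.1% and 15.3% with TMM. The cause of these shifts was not tested, apart from the stricter threshold.

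Leaving out 1 library gave RNA counts of 3 to 27, 17 to 50 and 19 to 54 for BDNF at 1, 6 and 10 h, 30 to 50, 42 to 55 and 35 to 44 for KCl, 10 to 25, 22 to 38 and 12 to 27 for BDNF against KCl, and 0 to 0 between control times. Peak counts ran from 0 to 3, 0 to 0 and 0 to 1 for BDNF and from 1 to 10, 1 to 8 and 1 to 6 for KCl. Of 288 results on named genes, other settings gave 2496 values, of which 75 lost and 19 gained a call and 0 reversed. The median of complex II turned to -0.02 at BDNF 1 h and -0.07 at KCl 10 h under upper-quartile scaling.

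The letters A and B of the RNA columns showed no common pairing, with correlations of -0.31 to 0.42 (median 0.065) and 13 of 36 pairs over 0.1. These values cannot exclude that some groups were paired by letter. With the letter as a replicate block the counts were 16, 46 and 51 for BDNF, 43, 51 and 42 for KCl, 21, 34 and 22 for BDNF against KCl, and 0 between control times. No paired analysis was possible for ATAC because its columns carry no replicate numbers. Without Cox6c, Ndufab1, Ndufs6 and Uqcrh, an alternative chosen after seeing the data, the counts were 16, 41 and 48, then 40, 46 and 38, then 19, 32 and 21.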

Other observations

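Single genes near the respiratory chain also moved. Polg, the mitochondrial DNA polymerase, had 1428 and 1410 normalized reads at BDNF 1 h against 709.7 to 852.4 in controls (0.86 ± 0.082, log2, SE, limma adjusted p = 3.37e-08). Tfb1m, which methylates mitochondrial ribosomal RNA, had 15.7 and 24.3 at KCl 6 h against 49.1 to 74.7 (-1.63 ± 0.21, adjusted p = 7.83e-07). Perm1, a regulator best known from muscle, had 33.0 and 26.1 at KCl 10 h against 87.7 to 117.5 (-1.80 ± 0.21, adjusted p = 3.41e-07). In all 3 the stimulated libraries lay outside the controls. Idh2, the mitochondrial NADP-linked isocitrate dehydrogenase, was lower at KCl 1 h (339.6 and 432.0 against 510.8 to 729.0, -0.67 ± 0.14, adjusted p = 0.000618) and higher at KCl 10 h (832.4 and 868.0, 0.48 ± 0.14, adjusted p = 0.00835).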
